A study of Homo sapiens with 8 samples.

Results

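Chromatin remodeller and histone-modifying enzyme genes were taken here as the protein-coding genes whose symbols begin with KMT, SETD, EZH, KDM, KAT, HDAC, BRD, SMARC, ARID or CHD followed by a number or letter, without the cadherin CDH genes. The rule matched 112 gene symbols, and 53 of these genes held at least 1 of 171 peaks that overlapped a single protein-coding gene. The whole data set held 31395 peaks, of which 15336 were assigned to a single one of 6765 protein-coding genes. The values were raw read counts over peaks from acRIP, in which an anti-ac4C antibody pulls down RNA carrying N4-acetylcytidine. The groups were 143B cells labelled sgNAT10, 143B control cells (NC), HOS cells labelled sgNAT10 and HOS control cells (NC), with 1 acRIP library each. 143B and HOS are established human osteosarcoma lines, 143B being a derivative of HOS, and sgNAT10 names cells in which the NAT10 gene was targeted with a guide RNA. No source used here says whether the sgNAT10 cells were a clone or a pool.

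Histone-modifying enzymes write and erase small chemical groups on the tails of histones, bromodomain proteins bind acetylated lysines, and remodellers use ATP to move or evict nucleosomes. KMT and SETD proteins include the methyltransferases, KDM proteins the demethylases, KAT proteins the acetyltransferases and HDAC proteins the deacetylases. Most SMARC and ARID members here are subunits of the SWI/SNF (BAF and PBAF) remodelling complexes, and CHD proteins are a separate family of remodelling ATPases. NAT10 is the acetyltransferase that writes ac4C into RNA. With letters as the rule, 4 members match by letters only: KATNAL1, KATNAL2 and KATNIP are named after the microtubule-severing protein katanin, and CHD9NB after a neighbour of CHD9. Roles below follow the symbols too. SETD3, a methyltransferase of actin, and KMT2E, with no established methyltransferase activity on histones, are therefore counted among the methylation writers.

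A pair of genomic stretches shows what lay under member peaks, each being a RefSeq window of 300 bases (build GRCh38.p14) that meets a member peak. The first is the promoter window of BRD9, which encodes a reader subunit of a BAF complex, on the minus strand of chromosome 5 (chr5:892501-892800), with capitals for the peak at 892604 to 892712. It was the only one of 78 promoter windows, belonging to 44 members with a peak, that a peak of the same member touched. The second lies inside the widest peak of ARID1B, which encodes a DNA-binding BAF subunit, on the plus strand (chr6:156778469-156778768). In it, capitals mark every C at the spaced positions of a motif of CNN 4 times in a row (N is any base), a repeat that has been described for ac4C-containing RNA.
BRD9: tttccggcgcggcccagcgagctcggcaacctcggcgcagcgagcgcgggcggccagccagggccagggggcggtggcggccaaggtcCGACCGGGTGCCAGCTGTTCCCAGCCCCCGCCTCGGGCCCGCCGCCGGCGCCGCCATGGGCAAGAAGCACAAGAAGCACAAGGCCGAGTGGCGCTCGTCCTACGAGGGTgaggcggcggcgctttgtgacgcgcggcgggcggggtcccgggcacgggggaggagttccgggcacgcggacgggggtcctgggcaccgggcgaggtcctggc
ARID1B: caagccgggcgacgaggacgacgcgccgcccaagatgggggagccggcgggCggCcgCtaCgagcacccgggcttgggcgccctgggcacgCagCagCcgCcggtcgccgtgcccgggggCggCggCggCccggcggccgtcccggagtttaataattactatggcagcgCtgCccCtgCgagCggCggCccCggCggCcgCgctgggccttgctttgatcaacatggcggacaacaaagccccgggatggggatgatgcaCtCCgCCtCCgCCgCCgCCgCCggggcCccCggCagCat

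The ARID1B stretch had 75.7% G and C and 18 overlapping starts of the motif on the plus strand, with 17 on the other. Over 34943 RefSeq promoter windows of the same length, 74.9% held the motif on the strand of the gene, 90.3% held it on either strand, and 3.49% had as many starts as ARID1B on the strand of the gene. The BRD9 window had 77.3% G and C and 7 starts, with 14 on the other strand. These windows were available because a promoter, of BRD9 itself or of a noncoding gene inside ARID1B, happened to lie there. The counts of motif starts are a description of the letters, and no site of acetylation can be read from them. If the tables count starts from 0, the first capital of the genomic interval lies 1 base outside the peak.

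Totals over all peaks ranged from 20107718 to 24785306 counts per library, and the members took from 0.0519% to 0.118% of them. The 143B library labelled sgNAT10 stood apart: its Spearman correlation with the other libraries over the member peaks ranged from 0.559 to 0.711, against 0.902 to 0.928 among the other libraries. The single peak of NAT10 had 130 counts in the 143B library labelled sgNAT10 and 65 in 143B NC, a log2 shift of 0.50, which goes against that label. In HOS it had 63 counts in sgNAT10 and 180 in NC, a log2 shift of -1.85. A read in this peak does not show whether the gene was cut, but every 143B shift below is one between the library labelled sgNAT10 and NC, and the HOS values stand as the values without that library. Of 9 osteosarcoma markers 4 held a peak (VIM, SPARC, RUNX2 and ALPL), while COL1A1, COL1A2, BGLAP, SPP1 and IBSP held none. Summed levels were 273 CPM in 143B labelled sgNAT10, 519 in 143B NC, 953 in HOS sgNAT10 and 993 in HOS NC. VIM made up most of each sum, with 246, 486, 921 and 917 CPM in the same order. SPARC had 24.2, 23.3, 18.7 and 68.0 CPM in that order, and RUNX2 had 2.41, 8.57, 12.7 and 7.34. ALPL had 1.15 CPM or less. Of 7 markers of other cell types 3 held a peak, and the epithelial genes ran in opposite directions in HOS: CDH1 had 35.1 CPM in HOS sgNAT10 and 0.276 CPM in HOS NC, and KRT8 had 19.9 CPM in HOS sgNAT10 and 37.3 CPM in HOS NC. The immune gene PTPRC stayed under 1 CPM in every library. The part of this in the shifts below was not tested.

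CPM here are counts scaled by a library total times its TMM factor, and a shift is the difference in log2 CPM between sgNAT10 and NC of 1 line, with a prior count of 1. Each interval given is a 95% interval that covers counting error only, because 1 library per group gives no spread between libraries. PCR copies could not be told from separate molecules, so even the counting error may be understated. With 1 library per line and genotype there is no test within a line, and a shift of at least 1 or at most -1 (2-fold) is counted as a description. Input libraries were not used here, so RNA level and antibody recovery cannot be told apart, nor can fewer cells with a transcript and less of it per cell. Across the 2 lines, the edgeR quasi-likelihood test with cell line as a block called 0 of 8153 gene sums (percent called 0) and 0 of 50 members at an adjusted p threshold of 0.05. At an unadjusted p under 0.05 it gave 315 gene sums and 0 members. The smallest adjusted p of a member was 0.985, that of SETD1A among others, and the fitted shift of SETD1A was -1.16 with a standard error of 0.73. On single peaks it called 0 of 24467 (percent called 0), with 944 at an unadjusted p under 0.05, and 0 of 158 member peaks, and the DESeq2 Wald test and limma-trend also called 0 of each.

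Of the 53 members with a peak, 50 passed the filter on low counts, and BRD10, BRDT and KATNIP did not. In 143B, 14 of these 50 were at least 2-fold lower in the library labelled sgNAT10, where 19.3% of the 6313 protein-coding genes passing the filter were, and 2 were at least 2-fold higher, where 20.6% were. In HOS, 3 members were at least 2-fold lower in sgNAT10 (15.1% of protein-coding genes) and 2 at least 2-fold higher (13.3%). The median shift of the members was -0.33 in 143B and -0.14 in HOS, beside medians of 0.15 and -0.11 over the protein-coding genes. The 31 members with a mean of 100 or more counts had a median of -0.96 in 143B, beside -0.18 over 2802 protein-coding genes with such a mean. In HOS the medians of those sets were -0.15 and -0.22.

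Opposite directions in the 2 lines were common among the members and among protein-coding genes in general. Of the 50, 14 had a negative shift in 143B with a positive one in HOS, where 21.3% of protein-coding genes did, and 12 had the opposite pair of signs, where 30.8% did. Another 19 were lower in both lines (23.6% of protein-coding genes) and 5 higher in both (24.2%). Counting intervals excluded 0 below in 143B and above in HOS for 7 of the 50 members, where 10.5% of protein-coding genes met that limit, and above in 143B and below in HOS for 5, where 15.6% did.

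**Figure D1:**
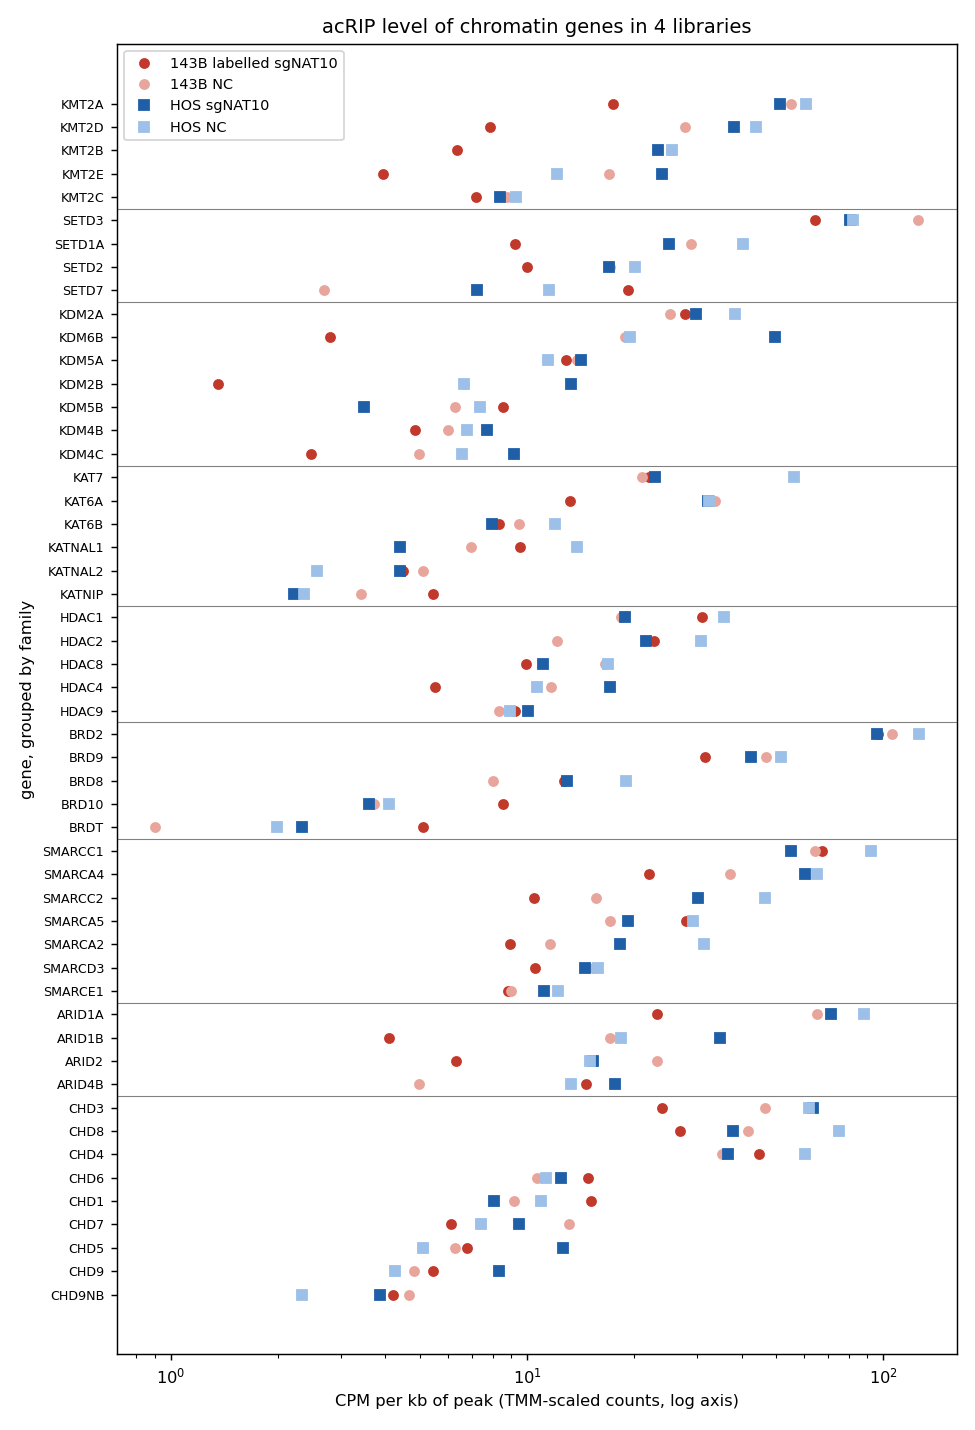
Level of the genes with a peak, 1 of them not shown, in CPM per kb of peak (log axis), grouped by family and ordered within it by mean level, with 1 point per library. The 143B library labelled sgNAT10 (dark circles) lies to the left of 143B NC (pale circles) for all 5 KMT genes, and the HOS points (squares) of KDM6B, KDM2B, KMT2E and ARID1B have sgNAT10 (dark) to the right of NC (pale).

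Per kb of peak, the highest mean level over the 4 libraries was that of BRD2, a BET bromodomain reader, at 106 CPM per kb. SETD3, a methyltransferase of actin, followed at 88.0 and SMARCC1, a core BAF subunit, at 69.7, while ARID1A had 61.9 CPM per kb. The lowest was BRDT, the testis BET protein, at 2.59 CPM per kb, and it did not pass the filter. Of the 112 symbols, 59 held no peak assigned to that gene alone, and of these KAT14 held a peak shared with PET117. The 59 included all 3 EZH symbols, which are EZH1 and EZH2, the Polycomb methyltransferases of histone H3 lysine 27, and EZHIP, an inhibitor of their complex.

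Among the methylation writers, 9 genes held a peak, and 8 of these were lower in the 143B library labelled sgNAT10 than in 143B NC (44.9% of protein-coding genes), 5 of them at least 2-fold. KMT2A, the MLL1 methyltransferase of histone H3 lysine 4, had 11.2 CPM in the 143B library labelled sgNAT10 against 35.5 in 143B NC, and 33.1 CPM in HOS sgNAT10 against 39.3 in HOS NC. Its shift was -1.66 (interval -1.85 to -1.47) in 143B and -0.25 (-0.40 to -0.10) in HOS. The 143B library labelled sgNAT10 was the lowest of the 4 and the others lay close together. KMT2D, which places enhancer methylation with KMT2C, had 12.2 CPM in 143B labelled sgNAT10 and 43.4 in 143B NC, with 59.6 in HOS sgNAT10 and 68.7 in HOS NC. Its 4 peaks were all at least 2-fold lower in 143B, and all 4 were below 0 in HOS, with shifts of -0.30 to -0.13.

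KMT2B, a lysine 4 methyltransferase, had a shift of -1.99 in 143B and one of -0.12 in HOS. SETD1A, of the same activity, had -1.62 and -0.69. SETD2, which trimethylates lysine 36, had -0.76 and -0.24. These genes were lower in both lines, but the HOS shifts of KMT2B and SETD2 had intervals that held 0. KMT2C lay nearer 0 than KMT2D: its 8 peaks summed to shifts of -0.28 in 143B and -0.15 in HOS, with single peaks from -2.49 to 0.70 in 143B. KMT2E, a SET-domain protein for which no methyltransferase activity on histones is established, was the exception in HOS. It had 2.62 CPM in 143B labelled sgNAT10 against 11.3 in 143B NC, and 16.0 CPM in HOS sgNAT10 against 8.12 in HOS NC, for shifts of -2.09 and 0.97. SETD7, a methyltransferase of lysine 4 and of other proteins, had 1 peak and the highest 143B shift of the members: 91 counts in 143B labelled sgNAT10 and 9 in 143B NC gave 2.72, while 28 in HOS sgNAT10 and 35 in HOS NC gave -0.65. SETD3 had -0.96 in 143B and -0.03 in HOS. All 5 KMT genes were lower in the 143B library labelled sgNAT10 under every scaling run except library totals alone, where KMT2C was higher. In HOS library totals alone put all 5 above 0, beside 4473 of 6313 protein-coding genes.

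Among the 7 methylation erasers with a peak, 5 were lower in the 143B library labelled sgNAT10 and higher in HOS sgNAT10 (21.3% of protein-coding genes). Library totals alone put 4 of the 7 above 0 in 143B, beside 4039 of 6313 protein-coding genes. TMM without the peaks of the rRNA block left 4 of the 7 above 0 in HOS, beside 2168 of 6313 protein-coding genes. For KDM4B, with shifts of -0.30 and 0.18, and KDM5A, with -0.10 and 0.30, the intervals held 0 in both lines. KDM6B, the JMJD3 demethylase that removes methyl groups from histone H3 lysine 27, was the member with the widest separation between lines. It had 6.46 CPM in 143B labelled sgNAT10 against 43.4 in 143B NC, and 115 CPM in HOS sgNAT10 against 44.7 in HOS NC. The shifts were -2.74 (interval -2.99 to -2.52) and 1.36 (1.24 to 1.47). The 2 NC libraries were alike and the 2 libraries labelled sgNAT10 lay on opposite sides of them. KDM6B was the only member at least 2-fold lower in 143B and at least 2-fold higher in HOS, where 3.9% of protein-coding genes were. Its 4 peaks were all lower in 143B and all higher in HOS, and the widest of them, 1827 bp at 7848083 to 7849910 on chromosome 17, held 81.9% of its counts.

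KDM2B, a demethylase that binds CpG islands, had 3.23 CPM in 143B labelled sgNAT10 against 15.8 in 143B NC, and 31.6 CPM in HOS sgNAT10 against 15.8 in HOS NC. Its shifts were -2.27 and 0.99, so that it missed the 2-fold limit in HOS, and its 5 peaks all lay within 63720 to 67443 bp of the 5 prime end. KDM4C, a lysine 9 demethylase, had -0.995 and 0.48. KDM2A, the closest relative of KDM2B, had 0.14 in 143B and -0.36 in HOS, and the lysine 4 demethylase KDM5B, with 9 to 27 counts per library, had 0.43 and -1.01.

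Of the 6 acetylation writers by letters, KAT6A (MOZ) and KAT7 (HBO1) are catalytic subunits of complexes that acetylate histone H3 and H4. Each was at least 2-fold lower in 1 line, KAT6A in 143B and KAT7 in HOS, with a summed shift near 0 in the other. KAT6A had 3.94 CPM in 143B labelled sgNAT10 against 10.02 in 143B NC, and 9.61 CPM in HOS sgNAT10 against 9.66 in HOS NC, for shifts of -1.34 and -0.01. KAT7 had 4.93 CPM in 143B labelled sgNAT10 against 4.71 in 143B NC, and 5.11 CPM in HOS sgNAT10 against 12.6 in HOS NC, for shifts of 0.07 and -1.29. In KAT7 the HOS NC library was the high one of the 4, and its 2 peaks had 143B shifts of -0.66 and 0.90. The katanin subunit KATNAL1, with 11 to 29 counts per library, had the lowest HOS shift, -1.56.

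Of the 5 acetylation erasers, HDAC1 and HDAC2, the class I deacetylases of several corepressor complexes, were higher in the 143B library labelled sgNAT10 and lower in HOS sgNAT10, although library totals alone put HDAC2 at 0.06 in HOS. HDAC1 had 6.17 CPM in 143B labelled sgNAT10 against 3.66 in 143B NC, and 3.77 CPM in HOS sgNAT10 against 7.12 in HOS NC, for shifts of 0.75 and -0.91. The single peak of HDAC1 lay 35 bp from its 3 prime end. Of protein-coding peaks within 500 bp of a 3 prime end, 73.3% were likewise higher in 143B and lower in HOS. HDAC2 had 5.25 CPM in 143B labelled sgNAT10 against 2.81 in 143B NC, and 4.98 CPM in HOS sgNAT10 against 7.12 in HOS NC, for shifts of 0.89 and -0.51. The class IIa gene HDAC4 ran the other way, with 20.9 CPM in 143B labelled sgNAT10 against 44.2 in 143B NC and 64.7 CPM in HOS sgNAT10 against 40.5 in HOS NC, for shifts of -1.08 and 0.67. All 15 peaks of HDAC4 lay farther than 500 bp from both gene ends, and the part of peak position in these shifts was not tested. HDAC9, of the same class and the member with the most peaks, 26, had shifts of 0.15 and 0.17, with single peaks from -2.32 to 2.54 in 143B.

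Among the readers, BRD2 had 10.9 CPM in 143B labelled sgNAT10 against 11.97 in 143B NC, and 10.8 CPM in HOS sgNAT10 against 14.2 in HOS NC, for shifts of -0.14 and -0.40. The HOS NC library was the high one of the 4. BRD9 showed a split along the gene: its peaks at 882185 and 882818, well inside the span, had -2.29 and -1.88 in 143B, while those at 891727 and 892604, near the 5 prime end and including the one printed above, had 0.49 and 0.39. In HOS the 4 shifts, in the same order, were -0.68, 0.07, -0.28 and 0.02.

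The 20 remodeller genes with a peak were 7 SMARC, 4 ARID and 9 CHD genes. ARID1B had 12 peaks, 17.8 CPM in 143B labelled sgNAT10 against 74.5 in 143B NC, and 152 CPM in HOS sgNAT10 against 79.9 in HOS NC, for shifts of -2.06 and 0.92. Of its peaks 10 were at least 2-fold lower in 143B, and the peak whose sequence is printed above, 1574 bp wide near the 5 prime end, held 51.6% of its counts, with shifts of -2.83 and 0.96. The last peak, 1690 bp from the 3 prime end, went the other way in 143B at 1.62 and had -0.03 in HOS. ARID1A, the alternative BAF subunit, had 1 peak and shifts of -1.47 and -0.31, and ARID2, the PBAF subunit, had -1.86 and 0.02. ARID4B, of a deacetylase complex, had 2.80 CPM in 143B labelled sgNAT10 against 0.952 in 143B NC, and 3.38 CPM in HOS sgNAT10 against 2.54 in HOS NC, for shifts of 1.51 and 0.40.

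All 7 SMARC genes were lower in HOS sgNAT10 than in HOS NC (54.5% of protein-coding genes), with shifts from -0.77 for SMARCA2 to -0.11 for SMARCA4, and 5 of 7 were lower in the 143B library labelled sgNAT10. With library totals alone in place of TMM, 3 of the 7 were higher in HOS, beside 4473 of 6313 protein-coding genes. SMARCC1, the core scaffold subunit, had 0.06 in 143B and -0.75 in HOS, and SMARCA5, the ISWI ATPase, had 0.71 and -0.60. SMARCA4, the BRG1 ATPase, had -0.76 and -0.11. As gene sums scaled by TMM, none of the 7 reached 2-fold in either line. TMM without the peaks of the rRNA block put 2 of the 7 at least 2-fold lower in HOS, beside 1475 of 6313 protein-coding genes. The HOS intervals of SMARCA4, SMARCD3 and SMARCE1 held 0. The 2 peaks of SMARCE1 had 143B shifts of 3.44 and -2.28, while its sum had -0.03.

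Of the 9 CHD genes, CHD5, a NuRD ATPase known mainly from neurons, had the highest CHD shift in HOS, 1.30, from 58.0 CPM in HOS sgNAT10 against 23.5 in HOS NC. In 143B it had 31.3 CPM in the library labelled sgNAT10 against 28.9 in NC, a shift of 0.11, and its 8 peaks did not run together there: 6 were lower and 2 higher, from -2.33 to 1.43, while all 8 were higher in HOS. Of its NuRD relatives, CHD3 had -0.97 in 143B and 0.04 in HOS, and CHD4 had 0.35 and -0.71. CHD8, a remodeller that binds beta-catenin, was lower in both, at -0.63 and -0.98, with 232 counts in 143B labelled sgNAT10, 254 in 143B NC, 268 in HOS sgNAT10 and 416 in HOS NC. CHD7 had -1.09 and 0.35, and CHD1 had 0.71 and -0.43.

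**Figure D2:**
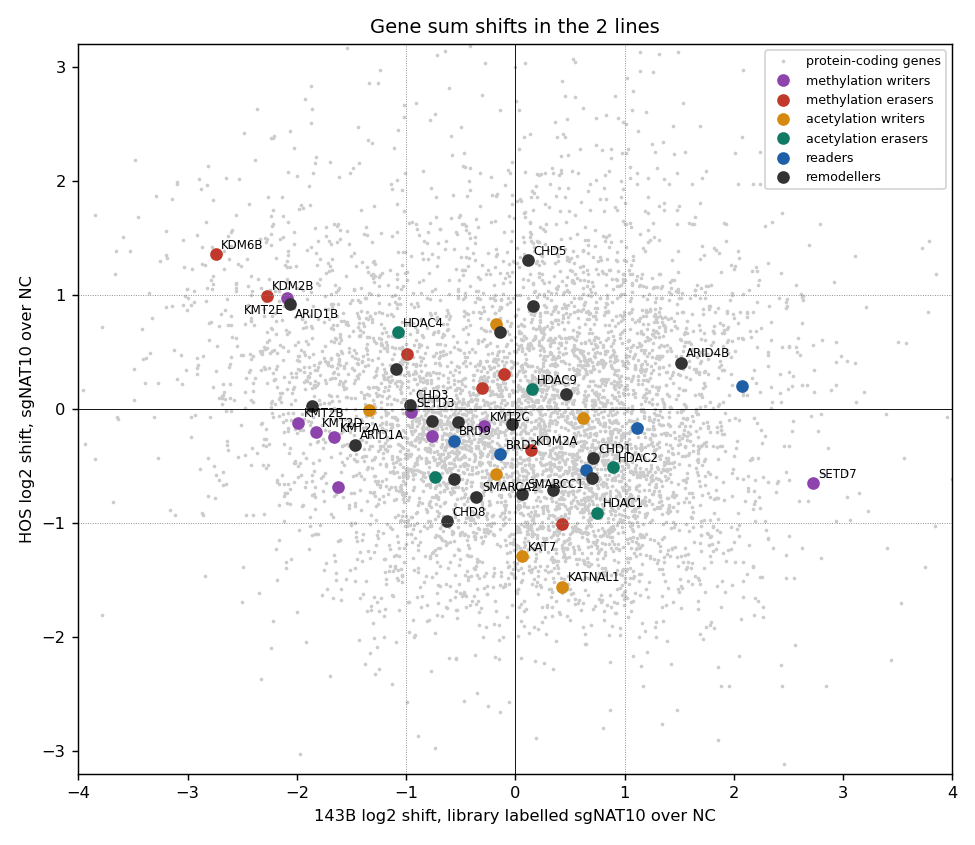
Shift in 143B (library labelled sgNAT10 over NC, horizontal) against shift in HOS (sgNAT10 over NC, vertical) on log2 scales, for the members coloured by role, 1 of them not shown, and, in grey, the 6313 protein-coding genes passing the filter, of which 84 lie outside the plotted range. KDM6B, KDM2B, KMT2E and ARID1B stand at the upper left, SETD7 at the right and KATNAL1 and KAT7 at the bottom; dotted lines mark 2-fold.

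Over the 171 member peaks the median shift was -0.63 in 143B and 0.14 in HOS, beside -0.04 and 0.15 over the 15336 protein-coding peaks. Of 158 member peaks passing the filter, 73 were at least 2-fold lower in 143B, where 30% of protein-coding peaks were, and 13 at least 2-fold higher, where 17.8% were. In HOS, 20 were at least 2-fold higher (18.7% of protein-coding peaks) and 6 at least 2-fold lower (12.5%). Among the 138 member peaks with a mean of 20 or more counts, 12 were at least 2-fold lower in 143B and at least 2-fold higher in HOS (8.63% of protein-coding peaks), and 0 had the opposite pattern (2.85%). Summed over all member peaks, levels were 412 CPM in 143B labelled sgNAT10, 743 CPM in 143B NC, 1080 CPM in HOS sgNAT10 and 909 CPM in HOS NC. Shifts moved with peak width. The 26 peaks of 300 bp or wider, in 13 genes, had a 143B median of -1.86 and a HOS median of 0.96. The sign was negative in 143B and positive in HOS for 20 of them, where 64.5% of protein-coding peaks of that width had those signs. The 2080 protein-coding peaks of that width had medians of -1.39 and 0.71, so the same direction was seen outside the members.

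Member peaks under 150 bp had medians of -0.34 in 143B and 0.03 in HOS, and those from 150 bp to under 300 bp had -0.58 and 0.16. Across the 138 member peaks with a mean of 20 or more counts, the Spearman correlation of width with the shift was -0.22 in 143B and 0.46 in HOS, beside -0.21 and 0.33 over 10379 protein-coding peaks. Peaks of 1 gene share its RNA, and wide peaks hold more counts, so these are descriptions. CHD5 held 6 wide peaks, HDAC4 4, and ARID1B and KDM2B 3 each, so that these genes weigh most in the wide class.

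**Figure D3:**
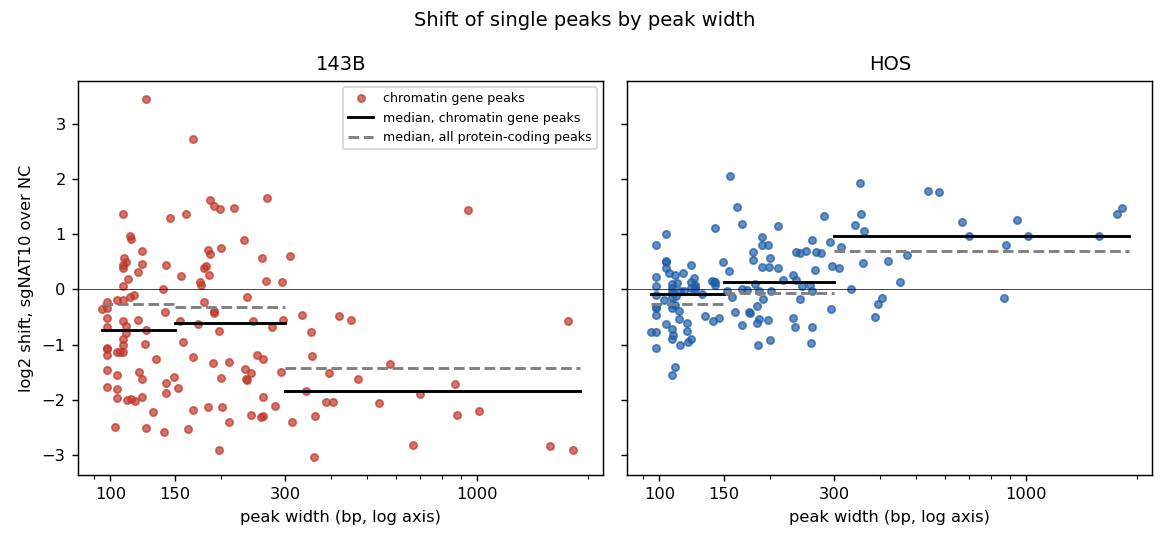
Shift of each member peak with a mean of 20 or more counts against its width in bp (log axis), in 143B at the left and HOS at the right, with medians per width class for the members (solid) and for all protein-coding peaks (dashed). Above 300 bp most points lie below 0 in 143B and above 0 in HOS, with the dashed medians on the same sides.

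Few member peaks lay near a gene end. Of the 171 peaks, 9 lay no farther than 500 bp from a gene end, beside 1804 of 15336 protein-coding peaks. The medians of these 9 were -0.55 in 143B and -0.16 in HOS, beside -0.65 and 0.19 for the other 162 member peaks. Over all protein-coding peaks the end class had 0.74 and -0.55, and its 3 prime part 0.92 and -0.64, whereas 5 of the 9 member peaks lay at a 3 prime end, with 0.25 and -0.55. The 5 prime part, 289 protein-coding peaks against 1198 at a 3 prime end, had -1.13 and -0.18. Of the 9 member peaks, 3 lay at a 5 prime end, with -1.72 and -0.03. Within the 6 members that held both kinds, the end peak had the higher 143B shift in 5, from 0.17 higher in KMT2D to 2.17 higher in SETD3, and the lower one in ARID2, by -1.72. With the span cut into 3 equal stretches, among members with a strand in the table, 28 peaks in the first stretch had a 143B median of -1.07, against -0.56 for 46 peaks in the middle one and 0.09 for 64 in the last. Among peaks with a mean of 20 or more counts the 143B medians were -1.62, -0.68 and -0.24, so the last one turned negative. In HOS the medians were 0.05, 0.08 and 0.11 over all counts, and 0.01, -0.03 and -0.03 at a mean of 20 or more counts. The protein-coding peaks of those stretches, over all counts, had -0.26, -0.19 and 0.22 in 143B and 0.21, 0.27 and -0.03 in HOS. At a mean of 20 or more counts those medians were -0.65, -0.66 and 0.004 in 143B, and 0.06, 0.14 and -0.22 in HOS. HDAC9 weighed most here, with 26 of the 138 member peaks that have a strand, 19 of the 26 being higher in 143B.

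**Figure D4:**
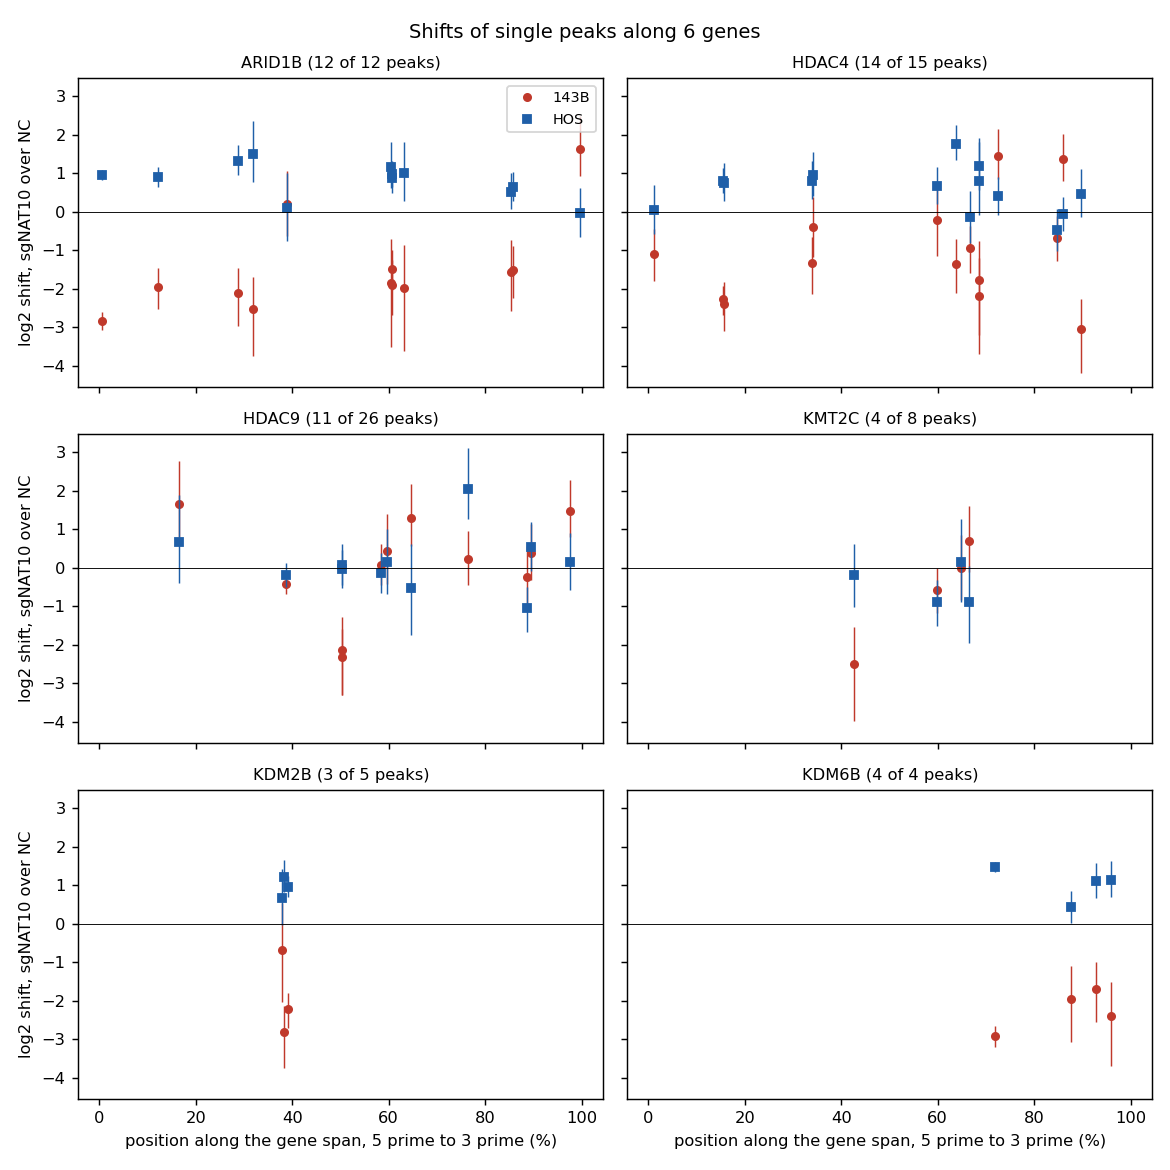
Shifts of single peaks with a mean of 20 or more counts along 6 genes with many peaks or wide peaks, against position in the gene span from 5 prime to 3 prime in percent, for 143B (circles) and HOS (squares), with 95% counting intervals. In ARID1B and KDM6B the circles lie below 0 and the squares above it, apart from 2 peaks of ARID1B, while in HDAC9 and KMT2C they mix.

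Other genes of chromatin regulation, outside the symbol rule, held a peak in 73 of 142 listed cases, with medians of -0.58 in 143B and -0.25 in HOS. Of the 73, 27 were at least 2-fold lower in 143B and 7 at least 2-fold higher, and in HOS 13 were at least 2-fold lower and 2 at least 2-fold higher. Over protein-coding genes those shares were 19.3% and 20.6% in 143B and 15.1% and 13.3% in HOS, with medians of 0.15 and -0.11. EHMT1, a lysine 9 methyltransferase with 10 peaks, had 38.6 CPM in 143B labelled sgNAT10 against 175 CPM in 143B NC, and 142 CPM in HOS sgNAT10 against 101 CPM in HOS NC, for shifts of -2.18 and 0.49. UHRF1, a reader of DNA methylation at replication, went the other way in 143B, with shifts of 2.32 and -1.14.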

How the data were processed

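The tables analysed were 2 count tables, 1 per cell line, each with 1 column for sgNAT10 and 1 for NC. The deposited values are raw read counts per peak interval, and the submitters' processing notes name GRCh38, FastQC, STAR, SAMtools and deepTools. Neither column name gives the assay, and the columns were taken as acRIP from the tables' own names. For the peak caller, counting tool, strand setting and start convention (from 0 or 1), the entry is: not given in the sources used here. Peaks were matched to RefSeq gene spans of GRCh38.p14, without exons, and summed per gene when they overlapped a single protein-coding gene, with readthrough symbols set aside. The 6 member peaks shared with another coding gene stayed out, and 12 peaks of 10 members also overlapped a noncoding gene. Strand was known for 44 of 53 members.

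Factors were TMM on peaks passing filterByExpr (minimum count 10, minimum total 15). The main test was edgeR 4.0.16 (quasi-likelihood, Benjamini-Hochberg, 1 residual degree of freedom), with DESeq2 1.42.0 and limma 3.58.1 as alternatives. It was tested on simulated data in which changes ran the same way in both lines. Recovery of the fold was required only at a dispersion below the fitted 0.25. How many changed genes the test finds at the fitted dispersion is not given here. Genes are named by level, shift, number of peaks (at least 4) or 2-fold shifts in both lines, among members with a mean of 20 or more counts for the shifts; this rule gave 28 genes, 1 of which is not reported here, and the others named were chosen after their values were seen. The members and lists were chosen with earlier results of these data known.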

Additional observations from a re-analysis of the deposited data

Results flagged for a closer look

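KDM6B had opposite 2-fold shifts in the 2 lines at the level of the gene sum, with a difference (143B minus HOS) of -4.10 in log2 units. The difference was not tested, since each line has 1 library per genotype. Among single peaks with a mean of 20 or more counts, 12 of 138 also had opposite 2-fold shifts, each negative in 143B and positive in HOS. Of 10379 protein-coding peaks with such counts, 8.63% did the same, so the share of member peaks was close to that of all peaks. Their differences were -4.38, -3.54 and -2.80 for 3 peaks of KDM6B, -4.04 for 1 of KDM2B, and -4.01, -3.43 and -3.01 for 3 of ARID1B. They were -3.85 and -2.58 for 2 peaks of CHD5, -3.38 and -3.12 for 2 of HDAC4, and -3.35 for 1 of KMT2E. The 2-fold and mean-count limits of this choice were set after the data were seen, and all of these differences rest on the 143B library labelled sgNAT10, which stood apart. In HOS alone, the shifts of these peaks ranged from 1.05 to 1.79.

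Peaks shared by 2 coding genes were left out of the gene sums. Of 6 such peaks, 2 at KDM6B and LOC124904106 were higher in HOS sgNAT10 than in HOS NC, with shifts of 1.99 and 1.27, the wider of them with 3381 counts in HOS sgNAT10. In 143B those 2 peaks had shifts of -2.72 and -2.87. The peak shared by KAT14 and PET117 was higher in the 143B library labelled sgNAT10 than in 143B NC, with a shift of 1.602, from 84 counts in the library labelled sgNAT10 and 19 in NC.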

How the results depend on the processing

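No paired analysis was possible because each cell line and genotype had 1 acRIP library, so replicate numbers pair nothing beyond the cell line, which is already a block. The edgeR test called 0 members with each library left out in turn (range 0 to 0, without the line block) and under every other setting run, for gene sums and for peaks. Over all features, leaving out the 143B library labelled sgNAT10 gave 124 called gene sums and 737 peaks, leaving out HOS sgNAT10 gave 9 and 70, no filter on low counts gave 112 peaks, and a mean of 100 or more counts gave 1 gene sum and 9 peaks.

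Library totals alone moved shifts by about 0.34 in 143B and 0.58 in HOS, less for low counts because of the prior count, and turned the member medians to 0.0058 and 0.43, with 6 members at least 2-fold higher in 143B, 10 higher in HOS and 1 lower in HOS. The protein-coding medians then were 0.48 and 0.46. Of 6313 protein-coding genes, 2006 were then at least 2-fold higher in 143B, 1766 higher in HOS and 261 lower in HOS. At least 2-fold lower members in HOS numbered 5 with DESeq2-type factors, 5 with upper quartile factors and 7 with TMM without the rRNA block. Under those settings, in the same order, 1213, 1104 and 1475 of 6313 protein-coding genes were at least 2-fold lower in HOS. At a mean of 50 or more counts 1 member was 2-fold higher in 143B and 1 was 2-fold lower in HOS, and with no filter 4 were 2-fold higher in 143B. With end peaks only, 8 members gave 0 higher and 3 lower in 143B, and 0 higher and 1 lower in HOS. The 143B median of end peaks was 0.32 at 200 bp, where the HOS one was -0.56, and that of internal peaks was -1.32 at a mean of 50 or more counts. The cause of these differences was not tested. Of 604 values of named genes, 496 stayed within their counting interval, 108 left it, and 0 of those past 2-fold changed sign. With the highest peak of each gene in place of its sum, the 143B shift was -2.28 for HDAC4 and -2.29 for BRD9. The count of reads in a peak limits what can be seen: KDM5B, KATNAL1 and BRDT rest on under 30 counts in each library.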
